A study of Mus musculus with 8 samples.

Results

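The mouse miRNAs mmu-miR-142a, mmu-miR-223, mmu-miR-342 and mmu-miR-511 are typical of blood and myeloid cells, and their level was followed in Kupffer cells, which are macrophages resident in the liver. Entries of the deposited table were taken when their name began with 1 of these 4 stems, whatever the arm or suffix. This gave 8 of the 1234 entries, the 5p and the 3p arm of each of the 4 hairpins, and all 8 passed the filter on low counts that left 627 entries for testing.

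The cells came from livers of male mice and were isolated with a flow cytometric sorter, whose gate is not given in the sources used here. There were 4 libraries from Trem2 knockout mice (animals 40, 46, 88 and 90) and 4 from wild-type littermates (animals 35, 37, 80 and 82). Trem2 is a lipid-sensing receptor of macrophages, and the labels do not describe the knockout allele or a cell type to which it is limited. Mice of both genotypes were fed a high-fat diet for 8 weeks from 8 weeks of age, so no library shows the level on normal chow.

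A miRNA is cut from a hairpin whose 5p and 3p strands can each be loaded into an Argonaute protein, where bases 2 to 8, the seed, pair with target messages. Expression of miR-142 runs through the blood cell lineages. Its hairpin yields products from both arms. The X-linked miR-223 is best known from neutrophils and monocytes, where it restrains granulocyte production and inflammatory activation. Both miR-342 and miR-511 sit in introns of protein-coding genes, miR-342 in Evl, which encodes an actin regulator, and miR-511 in Mrc1, which encodes the mannose receptor of macrophages. Both miR-223 and miR-342 are known targets of PU.1, a transcription factor of myeloid cells.

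The counted sequences are shown because the counts refer to them and because some differ from the annotated miRNA. They are given 5′ to 3′ as deposited, with the seed in capitals.
miR-142a-5p: cCCATAAAgtagaaagcactac
miR-142a-3p: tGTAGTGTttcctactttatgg
miR-223-5p: cGTGTATTtgacaagctgagtt
miR-223-3p: tGTCAGTTtgtcaaataccccat
miR-342-5p: aGGGGTGCtatctgtgattgagg
miR-342-3p: tCTCACACagaaatcgcacccgt
miR-511-5p: cATGCCTTttgctctgcactca
miR-511-3p: aATGTGTAgcaaaagacaggat

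The 8 counted seeds were all different. RefSeq (GRCm38.p6) held a mature sequence for 7 of the 8 arms, and 2 of these, miR-342-3p and miR-511-3p, were identical to the counted sequence. The largest difference was in miR-142a-5p, whose counted sequence began 2 bases upstream of the RefSeq form and ended 1 base short of it, so that its seed was not the annotated one. The RefSeq form is shown for comparison, again with bases 2 to 8 in capitals.
miR-142a-5p in RefSeq: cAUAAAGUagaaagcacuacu
For miR-142a-3p, miR-223-5p, miR-223-3p and miR-342-5p the seed was the annotated one and only the 3′ end differed, by 1 base. The last base of the miR-223-3p entry was not the base of the hairpin at that place, a difference written A23T (hairpin base, position from the 5′ end of the counted sequence, counted base). The other 7 sequences lay in their hairpins over their whole length. For miR-511-5p, RefSeq held no mature sequence to compare. Its entry name ends in L+1, where that of miR-142a-5p ends in L+2R-1. Read in the same way, the counted miR-511-5p began 1 base upstream of the form it is named for. Its counted seed would then not be the seed of that form. The sources used here do not say how reads of length variants were assigned to an entry.

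The hairpins from RefSeq are printed with the counted arms in capitals, to show where each product lies. In Mir223 the capitals stop before the base that did not match.
Mir142: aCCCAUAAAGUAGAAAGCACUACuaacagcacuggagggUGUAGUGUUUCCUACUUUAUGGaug
Mir223: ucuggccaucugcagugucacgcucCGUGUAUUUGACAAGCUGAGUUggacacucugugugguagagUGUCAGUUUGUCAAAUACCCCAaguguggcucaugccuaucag
Mir342: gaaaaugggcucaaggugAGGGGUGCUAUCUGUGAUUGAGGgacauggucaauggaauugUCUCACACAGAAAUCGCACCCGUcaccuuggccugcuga
Mir511: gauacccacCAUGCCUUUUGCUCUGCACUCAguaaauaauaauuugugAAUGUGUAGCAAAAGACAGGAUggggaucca
On the plus strand of GRCm38.p6, Mir142 lay at chr11:87756864-87756927, in an intron of the non-coding host gene Mir142hg and opposite an exon of the antisense gene Mir142b. Mir223 lay at chrX:96242817-96242926, in an exon of the non-coding gene F630028O10Rik. Mir342 lay at chr12:108658620-108658718, in an intron of Evl, and Mir511 at chr2:14261003-14261081, in an intron of Mrc1.

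Library totals ran from 2129942 to 9443992 expected counts, which are counts in which a read can be divided among entries. Levels are given as CPM, counts per 1000000 of the library total scaled by TMM, a trimmed-mean factor per library. Because the counted sequences were 22 or 23 bases long, levels of different members were compared without a correction for length. How evenly the library preparation captured different sequences was not tested. Orders of members and of arms are therefore orders of counts. The lists for other cell types, of miRNAs enriched in and not exclusive to a cell type, had all their miRNAs among the tested entries except miR-199a-3p of the stellate or mesenchymal list. Their summed CPM ran from 9098 to 139223 for hepatocytes, from 12264 to 19239 for endothelium, from 636 to 7387 for erythroid cells, from 1733 to 3735 for lymphocytes, from 3082 to 8052 for stellate or mesenchymal cells and from 235 to 727 for epithelium. The highest hepatocyte sum was in wild-type library 37, where the next highest library reached 41007 CPM. The macrophage miRNAs outside the 4 hairpins, miR-146a-5p, miR-155-5p and miR-21a-5p, summed to 194650.2 CPM or more in every library. Their mean levels over all libraries were very unequal, at 271661.5 CPM for miR-21a-5p, 83831 CPM for miR-146a-5p and 39.98 CPM for miR-155-5p. The sum therefore reflects mainly miR-21a-5p and says little about miR-155-5p.

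The 4 hairpins together took the smallest share of counts in wild-type library 37, at 2.24% (95% Wilson bounds 2.22 and 2.25), and the largest in knockout library 90, at 6.31% (bounds 6.29 and 6.33). The bounds cover counting error only. In animals 35 to 46 the share lay between 2.24% and 3.39%, and in animals 80 to 90 between 6.09% and 6.31%, with wild-type and knockout libraries mixed in each range. Per hairpin, miR-142a took 1.28% to 3.14%, miR-342 0.655% to 3.21%, miR-223 0.230% to 0.743% and miR-511 0.0568% to 0.0835% of a library. The shares of miR-142a, miR-342 and miR-223 were higher in animals 80 to 90. That of miR-511 was lower, at 0.0568% to 0.0640% against 0.0661% to 0.0835% in animals 35 to 46.

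**Figure D1:**
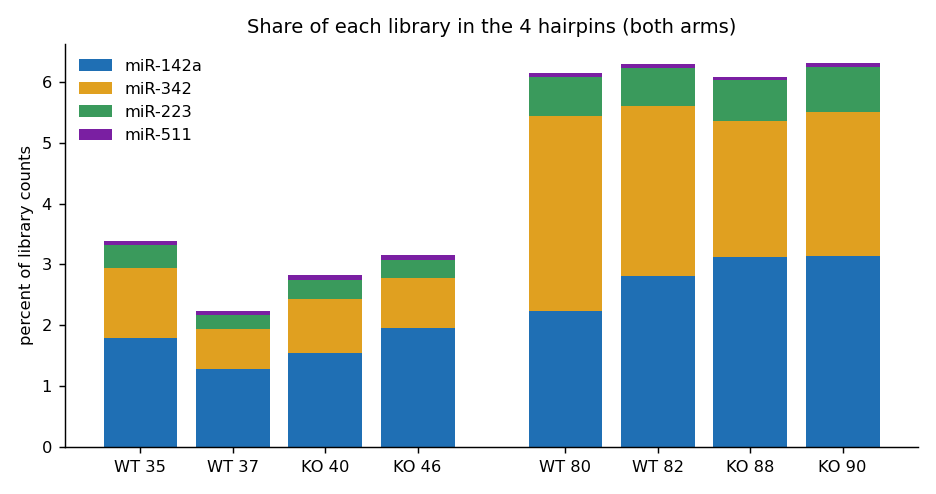
Percent of each library's counts that fell to the 4 hairpins (vertical axis), stacked by hairpin with both arms summed, for the 8 libraries (horizontal axis, WT wild type, KO knockout, with the animal number). The 4 libraries of animals 35 to 46 reach 2.24% to 3.39% and the 4 libraries of animals 80 to 90 reach 6.09% to 6.31%.

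By mean level over the 8 libraries the order was miR-142a-5p, miR-342-3p, miR-223-3p, miR-142a-3p, miR-511-3p, miR-342-5p, miR-223-5p and miR-511-5p. Among the 627 tested entries miR-142a-5p ranked from 6 to 15 in single libraries, miR-342-3p from 6 to 28, miR-223-3p from 28 to 48 and miR-142a-3p from 40 to 70. The rank of miR-511-3p was 89 to 126, and the minor arms miR-342-5p, miR-223-5p and miR-511-5p fell between 109 and 300. The ranges of miR-142a-5p (11674 to 30261 CPM) and miR-342-3p (7345 to 36724 CPM) overlapped, as did those of miR-223-3p and miR-142a-3p, of miR-511-3p and miR-342-5p, and of miR-223-5p and miR-511-5p. Every member was counted in every library, with the lowest expected count, 83, for miR-511-5p in wild-type library 37.

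The comparison of knockout with wild type asked whether loss of Trem2 went with a different level of these myeloid miRNAs. This fit held genotype alone, without the range of animal numbers. None of the 8 entries was called. Over all tested entries 0 of 627 (0%) passed an adjusted p of 0.05 in the quasi-likelihood test of edgeR, with 2 at an unadjusted p under 0.05, and DESeq2 called 0 as well, with 6 at an unadjusted p under 0.05. Of the members 4 were fitted higher and 4 lower in knockout, with a median log2 difference of 0.01 against -0.04 over all 627 entries. The smallest unadjusted p among them was 0.443. For all 8 members the wild-type and knockout libraries overlapped, both in CPM and in the deposited normalized values. Over all tested entries 0.797% did not overlap in CPM, 0.319% with knockout higher and 0.478% with knockout lower. The libraries measure bulk RNA, in which fewer cells of a type and less RNA per cell cannot be told apart.

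The most abundant member, miR-142a-5p, had 14802, 11674, 23828 and 21078 CPM in wild-type libraries 35, 37, 80 and 82. In knockout libraries 40, 46, 88 and 90 it had 14400.4, 16809, 24724 and 30261 CPM. The highest value was a knockout library and the lowest a wild-type one, with the remaining 6 interleaved. Wild-type libraries averaged 17846 ± 5586 CPM and knockout libraries 21548 ± 7293 CPM (SD, n = 4 each). The log2 difference was 0.27 ± 0.34 (SE; 95% interval -0.49 to 1.03; edgeR adjusted p 0.997). On the authors' normalized scale the means were 65171 ± 22225 and 81038.5 ± 29085, a ratio of 1.24. It was the member whose fitted difference kept its sign under all 20 alternatives, from 0.06 to 0.43, and within each range of animal numbers it was 0.29 (animals 35 to 46) and 0.31 (animals 80 to 90).

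Its partner strand miR-142a-3p had 2841, 3135, 2238 and 1468 CPM in wild-type libraries 35, 37, 80 and 82. It had 3261, 2003, 1402 and 2092 CPM in knockout libraries 40, 46, 88 and 90. The lowest and the highest value both came from knockout mice. The log2 difference was -0.14 ± 0.35 (SE; 95% interval -0.93 to 0.65; edgeR adjusted p 0.997).

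For miR-342-3p the wild-type libraries 35, 37, 80 and 82 held 11050.3, 7345, 36724 and 22023 CPM. The knockout libraries 40, 46, 88 and 90 held 9983, 7581, 18514 and 23884 CPM. The single highest library was wild-type 80. The difference of -0.36 ± 0.54 (SE; 95% interval -1.57 to 0.84; edgeR adjusted p 0.997) was the largest of the 8, and it was 0.14 without wild-type library 80. Within the ranges it was -0.01 in animals 35 to 46 and -0.45 in animals 80 to 90. The minor strand miR-342-5p averaged 344 ± 150 CPM over the wild-type libraries and 329.9 ± 58.6 CPM over the knockout libraries (SD, n = 4 each).

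The neutrophil and monocyte miRNA miR-223-3p had 3575, 2600.2, 7255 and 4950.0 CPM in wild-type libraries 35, 37, 80 and 82. It had 3512, 2819.8, 5464 and 7504 CPM in knockout libraries 40, 46, 88 and 90. Each genotype had low values in the lower animal numbers and high values in the upper ones. The log2 difference was 0.07 ± 0.41 (SE; 95% interval -0.86 to 1.00; edgeR adjusted p 0.997). The minor strand miR-223-5p averaged 109.7 ± 63.1 CPM over the wild-type libraries and 94.2 ± 32.6 CPM over the knockout libraries (SD, n = 4 each).

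The Mrc1 intronic miR-511-3p had 653, 728, 551 and 396 CPM in wild-type libraries 35, 37, 80 and 82. It had 921, 702, 422 and 565 CPM in knockout libraries 40, 46, 88 and 90. The highest library was knockout 40, and without it the log2 difference moved from 0.16 ± 0.34 (SE; 95% interval -0.60 to 0.93; edgeR adjusted p 0.997) to -0.04. The minor strand miR-511-5p averaged 65.6 ± 34.2 CPM over the wild-type libraries and 70.8 ± 25.9 CPM over the knockout libraries (SD, n = 4 each).

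**Figure D2:**
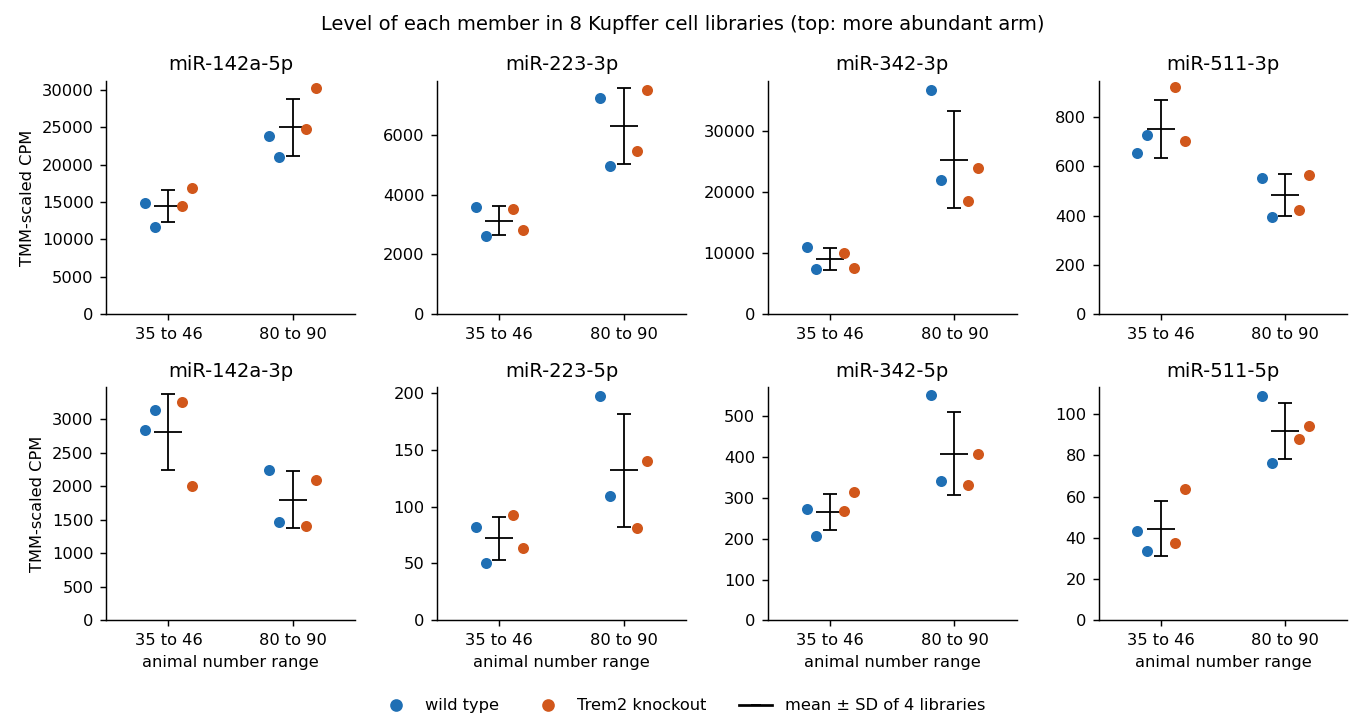
TMM-scaled CPM (vertical axes, starting at 0 and differing between panels) of the 8 entries in each library, with the more abundant arm of each hairpin in the top row. Points are single libraries, blue for wild type and orange for knockout, and black bars are the mean ± SD of the 4 libraries in a range of animal numbers (horizontal axis). For miR-342-3p the libraries of animals 35 to 46 lie between 7345 and 11050.3 CPM and those of animals 80 to 90 between 18514 and 36724 CPM, whereas wild-type and knockout points overlap in every panel.

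A second comparison set animals 80 to 90 against animals 35 to 46, with genotype as a covariate. Each range held 2 wild-type and 2 knockout mice. The labels do not say what the number range stands for, and libraries of these data were known to group by it. Higher in animals 80 to 90 were miR-342-3p, miR-223-3p, miR-142a-5p and miR-511-5p, and lower was miR-511-3p. These 5 of 8 calls stand against 203 of 627 entries (32.4%) called in the same edgeR fit, 16.6% higher and 15.8% lower. The median log2 difference was 0.82 over the 8 members and -0.04 over all entries. Without wild-type library 37, where hepatocyte miRNAs were highest, 2 of 8 members were called, miR-342-3p and miR-223-3p, among 129 entries in all. Leaving out any other library gave between 3 of 8 (as without wild-type 35) and 6 of 8 (without wild-type 80). DESeq2 and voom with quality weights each called 7, and total counts only called 8. The number called over all entries moved too, from 129 to 222 on leaving out 1 library. Under the other alternatives it ran from 200 to 289, against 203 in the main fit. The number of entries tested changed where the filter did.

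The largest difference was that of miR-342-3p, from 8990 ± 1819 CPM in animals 35 to 46 to 25286 ± 7944 CPM in animals 80 to 90 (SD, n = 4 each), a ratio of 2.81. All 4 libraries of the upper range lay above all 4 of the lower one. The log2 difference was 1.47 ± 0.25 (SE; 95% interval 0.91 to 2.04; edgeR adjusted p 0.00216), and it was called under all 15 alternatives. For miR-223-3p the means were 3127 ± 490 and 6293 ± 1276 CPM, a log2 difference of 1.01 ± 0.22 (SE; edgeR adjusted p 0.00637), again without overlap and called under all 15.

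For miR-142a-5p the level went from 14421 ± 2113 to 24973 ± 3852 CPM (SD, n = 4 each), and the log2 difference was 0.79 ± 0.18 (SE; edgeR adjusted p 0.00945). The 2 ranges did not overlap. Of the 15 alternatives the call was lost only without wild-type library 37, at an adjusted p of 0.0545 and a difference of 0.79. The 3p strand of the same hairpin went the other way in the fit, from 2810.2 ± 566 to 1800.1 ± 427 CPM. Its log2 difference of -0.64 ± 0.24 (SE; edgeR adjusted p 0.0637) did not pass, and the ranges overlapped because knockout library 46, at 2003 CPM, lay below wild-type library 80 and knockout library 90. It passed with total counts only (adjusted p 0.0486) and without wild-type library 80 (0.0478).

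The 2 strands of miR-511 were called in opposite directions. The abundant miR-511-3p was 751 ± 117 CPM in animals 35 to 46 and 484 ± 86.8 CPM in animals 80 to 90, a log2 difference of -0.63 ± 0.21 (SE; edgeR adjusted p 0.0418). The rare miR-511-5p was 44.5 ± 13.4 and 91.9 ± 13.6 CPM, a log2 difference of 1.06 ± 0.29 (SE; edgeR adjusted p 0.0212). Neither overlapped between the ranges. The call of miR-511-3p was lost with DESeq2 size factors (adjusted p 0.0760), with no filter (0.240) and on leaving out any 1 library other than wild-type 80 (0.0645 to 0.194). The call of miR-511-5p was lost without wild-type 35, wild-type 37, knockout 40 or knockout 90 (adjusted p 0.0538 to 0.0807). The minor strands miR-223-5p and miR-342-5p had log2 differences of 0.86 ± 0.34 and 0.62 ± 0.24 (SE; edgeR adjusted p 0.0771 and 0.0743) and did not pass, while DESeq2 gave them adjusted p of 0.0298 and 0.0280.

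The ranges did not overlap for 6 of 8 members, against 41.1% of all tested entries. Of these, 5 lay higher in animals 80 to 90 (against 21.4% of entries) and 1 lay lower (against 19.8%). The term for a genotype difference that changes with the range was called for 0 of 8 members and 0 of 627 entries (0%) in edgeR, with 30 entries at an unadjusted p under 0.05 and 0 calls in DESeq2, where 36 had such a p.

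**Figure D3:**
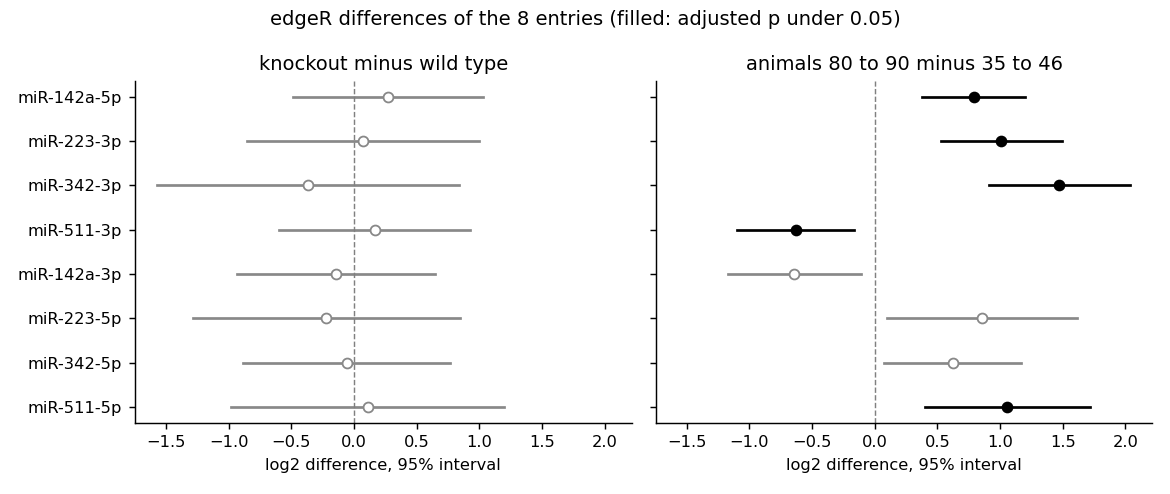
Log2 differences of the 8 entries from edgeR (horizontal axes) with 95% intervals, knockout minus wild type on the left and animals 80 to 90 minus 35 to 46 on the right. Filled points passed an adjusted p of 0.05. Every interval on the left includes 0, and on the right miR-342-3p reaches 1.47 while miR-511-3p and miR-142a-3p lie below 0.

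Summed levels of 4 of the 6 lists for other cell types did not overlap between the ranges, beside 41.1% of all tested entries. Their part in the members' differences was not tested. In animals 35 to 46 against animals 80 to 90 the erythroid list ran from 5059.8 to 7387 against 636 to 2516 CPM, and the stellate or mesenchymal list from 5374 to 8052 against 3082 to 3590.0 CPM. The lymphocyte list was 1733 to 2122 against 2494 to 3735 CPM, and the epithelial list 235 to 359.9 against 405 to 727 CPM. The endothelial list overlapped (12264 to 19239 against 13576 to 18967 CPM), as did the hepatocyte list (12219 to 139223 against 9098 to 14157 CPM). The sum of the 3 macrophage miRNAs outside the 4 hairpins, most of it miR-21a-5p, did not overlap either. For these 3 it was 387326 to 517245 CPM against 194650.2 to 348285 CPM. Of these 3, miR-21a-5p was called lower in animals 80 to 90, whereas miR-146a-5p and miR-155-5p were not called, with log2 differences of -0.31 and 0.40 (edgeR adjusted p 0.424 and 0.539).

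The balance of the 2 arms needs no library scaling, since both arms are counted in the same library. It was analysed for the 97 mouse hairpins with both arms among the tested entries, of which 53 had the 5p and 44 the 3p arm more abundant on average. The 5p arm dominated in miR-142a and the 3p arm in miR-223, miR-342 and miR-511, in all 8 libraries. The minor arm held 5.37% to 21.2% of the miR-142a counts, 1.46% to 2.65% of miR-223, 1.48% to 3.97% of miR-342 and 3.90% to 17.3% of miR-511. Of the 97 pairs, 31 had a more lopsided mean ratio than miR-223 and 55 than miR-142a.

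In miR-142a the 5p count was 5.21, 3.72, 10.6 and 14.4 times the 3p count in wild-type libraries 35, 37, 80 and 82. It was 4.42, 8.39, 17.6 and 14.5 times the 3p count in knockout libraries 40, 46, 88 and 90. All 4 libraries of animals 80 to 90 exceeded all 4 of animals 35 to 46, whatever the genotype. The log2 ratio of 5p to 3p differed between the ranges by 1.44 ± 0.28 (SE; limma adjusted p 0.00715) and between genotypes by 0.42 ± 0.61 (SE; limma adjusted p 0.998).

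In miR-511 the 3p count was 15.1, 21.5, 5.06 and 5.19 times the 5p count in wild-type libraries 35, 37, 80 and 82. It was 24.7, 11.0, 4.79 and 6.01 times the 5p count in knockout libraries 40, 46, 88 and 90. In animals 80 to 90 the minor strand thus came closer to the major one in all 4 libraries. The log2 ratio of 5p to 3p differed between the ranges by 1.71 ± 0.30 (SE; limma adjusted p 0.00528) and between genotypes by 0.03 ± 0.69 (SE; limma adjusted p 0.998).

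In miR-342 the 3p count was 40.4, 35.4, 66.4 and 64.6 times the 5p count in wild-type libraries 35, 37, 80 and 82. It was 37.4, 24.2, 55.8 and 58.6 times the 5p count in knockout libraries 40, 46, 88 and 90. Here the major strand pulled further ahead in the upper range, without overlap. The log2 ratio of 5p to 3p differed between the ranges by -0.86 ± 0.22 (SE; limma adjusted p 0.0158), a call lost without knockout library 90 (0.0565).

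In miR-223 the 3p count was 43.7, 51.5, 36.8 and 45.3 times the 5p count in wild-type libraries 35, 37, 80 and 82. It was 38.1, 44.3, 67.5 and 53.7 times the 5p count in knockout libraries 40, 46, 88 and 90. The ranges overlapped, and the log2 ratio differed by -0.17 ± 0.25 (SE; 95% interval -0.76 to 0.42; limma adjusted p 0.620). The differences between genotypes were -0.18 ± 0.33 for miR-223 and 0.26 ± 0.42 for miR-342 (SE; limma adjusted p 0.998 for both). Across all pairs the genotype comparison called 0 of 97 (0%), with 1 at an unadjusted p under 0.05.

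**Figure D4:**
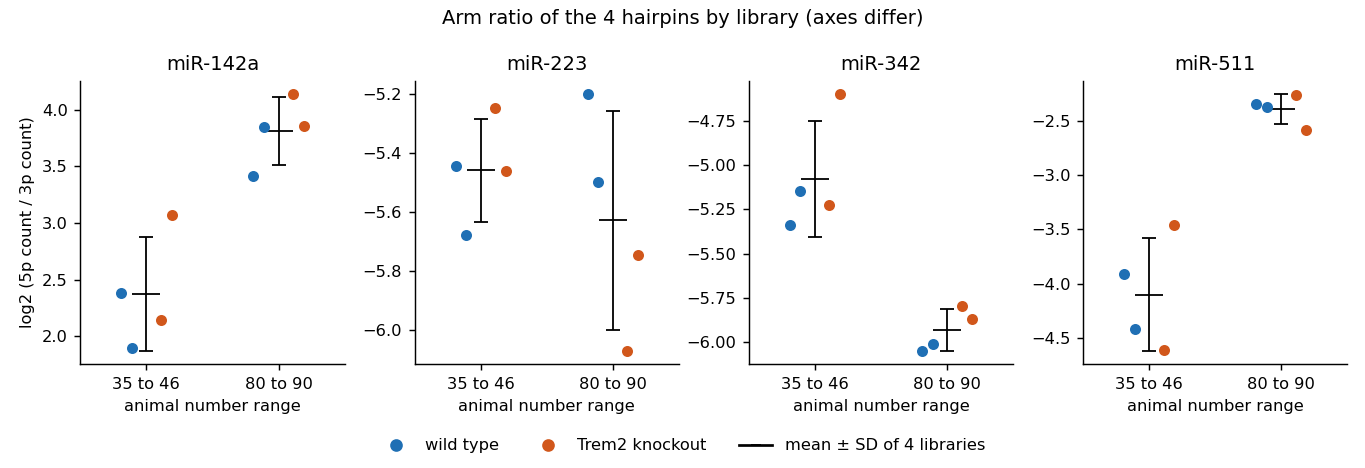
Log2 of the 5p count over the 3p count (vertical axes, differing between panels) for the 4 hairpins. Points are single libraries, blue for wild type and orange for knockout, and black bars are the mean ± SD of the 4 libraries in a range of animal numbers (horizontal axis). The ranges separate in miR-142a, miR-342 and miR-511 and overlap in miR-223, while wild-type and knockout points overlap in all 4.

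The 3 of 4 members whose arm ratio was called between the ranges stand against 44 of 97 pairs (45.4%) called in the same limma fit, 23.7% with a higher and 21.6% with a lower 5p to 3p ratio. The same 3 did not overlap between the ranges, against 50.5% of pairs, 25.8% higher and 24.7% lower. The median absolute log2 difference over the 97 pairs was 1.03, and 24 pairs differed more than miR-511, 32 more than miR-142a, 53 more than miR-342 and 86 more than miR-223.

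**Figure D5:**
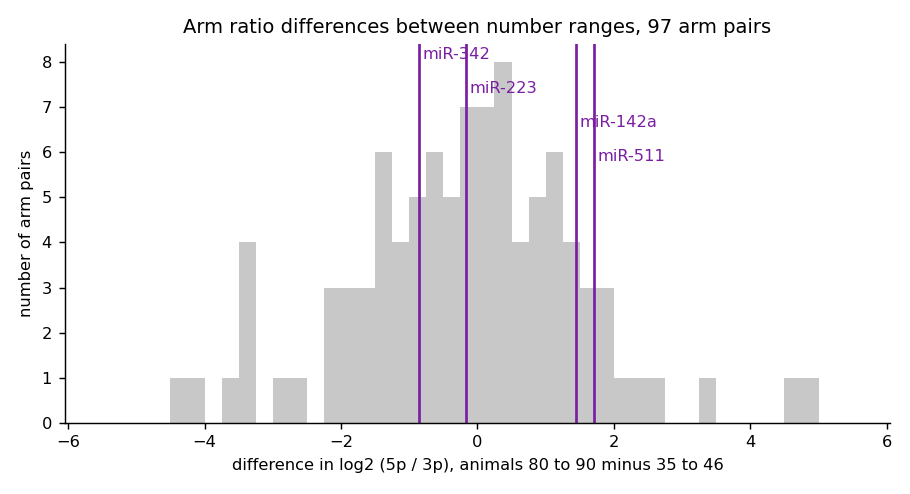
Number of mouse hairpins (vertical axis) by the difference in log2 arm ratio, animals 80 to 90 minus 35 to 46 (horizontal axis), for the 97 tested pairs, with the 4 members as lines. The members lie within the spread of the other pairs, from -0.86 for miR-342 to 1.71 for miR-511.

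The members fell into different patterns over the libraries. Likeness was measured as the mean absolute difference over the 8 libraries between log2 CPM profiles, each centred on its own mean, so that 0 is an identical pattern. Of the 28 pairs of members the closest were miR-142a-3p with miR-511-3p (0.15) and miR-142a-5p with miR-223-3p (0.15). The arms of the same hairpin stood at 0.22 in miR-223, 0.43 in miR-342, 0.72 in miR-142a and 0.86 in miR-511. In miR-142a, miR-342 and miR-511 each strand was closer to a strand of another hairpin than to its own partner, as was miR-223-3p, and miR-223-5p alone was closest to its partner.

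Among 151 other mouse entries with a mean of at least 100 CPM, those most like miR-223-3p were miR-26a-5p (0.10), miR-16-5p (0.10) and miR-23b-3p (0.13). Those most like miR-511-3p were miR-27b-3p (0.11), miR-24-3p (0.14) and miR-30a-5p (0.14). Nearest to miR-342-3p stood miR-361-5p (0.16), miR-200c-3p (0.18) and miR-1198-5p (0.18), and nearest to miR-142a-5p stood miR-338-5p (0.18), miR-151-5p (0.18) and miR-322-3p (0.18). The profiles come from the same 8 libraries, so they share depth and scaling. Among tested mouse entries, the counted seed of 1 member was shared: miR-532-5p had the counted seed of miR-511-5p. That match rests on the counted start of miR-511-5p, which by the L+1 in its name is shifted upstream. The level of miR-532-5p was 1846 ± 251 CPM over the wild-type libraries and 1955 ± 496 CPM over the knockout libraries (SD, n = 4 each).

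Other regulators of myeloid cells were read from a list of 19 miRNAs, of which 16 were tested. None was called between genotypes. Between the ranges 3 of 16 were called higher in animals 80 to 90, 2 lower and 11 not, beside 32.4% called over all entries. Their median log2 difference was -0.05, with -0.04 over all entries and 0.82 over the members. The 3 most abundant were miR-21a-5p, an inflammation-associated miRNA, miR-146a-5p, a brake on Toll-like receptor signalling, and miR-29a-3p, a regulator of collagen genes. Between the ranges their log2 differences were -0.86 ± 0.26, -0.31 ± 0.28 and -0.20 ± 0.20 (SE; edgeR adjusted p 0.0296, 0.424 and 0.477).

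Outside the 8 entries, 8 others shared a run of at least 14 bases with a member, so that reads of a member's variants may be counted there. The entries with platypus names for miR-223-3p, of which there were 3, summed to 3.71% to 6.15% of the miR-223-3p count, between 3.71% and 6.15% in animals 35 to 46 and between 3.91% and 4.71% in animals 80 to 90. The entries with cattle names for miR-342, of which there were 2, summed to 0.155% to 0.922% of the miR-342-3p count, the highest in knockout library 88. The entry mir-3964-p3_1ss6GA held 0.125% to 0.226% of the miR-142a-5p count. Of the 8 members, miR-142a-5p alone held fractional counts, in steps of 0.5, in which a read was divided between entries.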

How the data were processed

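Small RNA of 8 Kupffer cell libraries was examined. Per the labels they were made with the TruSeq kit of Illumina for small RNA, from 1 µg of RNA each. Which aligner, database and build were used was not given in the sources used here. Per the file headers, the deposited raw columns hold expected counts, of which 12.0% were not whole, and the authors' normalized columns hold a signal, which equalled the raw value times 1 factor per library. Counts were rounded, filtered with filterByExpr, scaled by TMM and tested with the quasi-likelihood test of edgeR 4.0.16 (R 4.3.3), with Benjamini-Hochberg adjustment over 627 entries at 0.05. Standard errors came from the F statistic. Arm ratios, log2 of (5p count + 0.5) over (3p count + 0.5), were tested with limma 3.58.1 over 97 pairs. DESeq2 1.42.0 was an alternative. The fits were tested on simulated data. For both comparisons the simulated counts had the spread between libraries of the range fit. The common dispersion, the measure of that spread in edgeR, was 0.28 there and 0.58 in the genotype fit. The simulation therefore cannot show how the genotype test performs on these data. Animal numbers were read from the sample titles and taken as separate mice. If they are not, p-values measure only the spread between samples. Sequences and coordinates are from RefSeq (GRCm38.p6), host genes from GENCODE M21.

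All 8 entries that the naming rule found are reported. The 4 stems, the lists and the number range comparison were chosen with earlier results of these data known. Alternatives were 2 other filters, 2 other scalings, DESeq2, voom with quality weights, leaving out each library, and for genotype a number range block, each range alone, identical sequences merged, mouse names only and limma-trend on log2(normalized value + 1), which was added for the range comparison after seeing the data, and for arm ratios pseudocounts of 1 and 5, 1 entry per arm and a filter of 10 counts in 4 libraries.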

Additional observations from a re-analysis of the deposited data

How the results depend on the processing

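The counts of 0 calls between genotypes, over all entries and over arm pairs, held under all alternatives run. Without a filter, 10 entries were called for a genotype difference that changed with the range. The number called between ranges was 129 to 222 on leaving out 1 library, and the number of arm pairs 36 to 46. Between ranges all 8 members and all 4 arm ratios kept their direction; of 120 member values, 14 lost and 10 gained a call. With total counts only, the median log2 difference between ranges over all entries was 0.16, against -0.04 with TMM.

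Between genotypes, where no member was called, 21 of 160 member values changed sign. miR-342-5p was 0.14 with voom, 0.33 in animals 35 to 46, 0.0057 with mouse names only and 0.066 with limma-trend. miR-223-5p was 0.091 with voom and 0.30 in animals 35 to 46. miR-511-5p was -0.00083 in animals 80 to 90. On leaving out 1 library the log2 differences ran from -0.039 to 0.34 (miR-511-3p), -0.69 to 0.14 (miR-342-3p), -0.48 to 0.21 (miR-223-5p), -0.39 to 0.029 (miR-142a-3p), -0.11 to 0.45 (miR-511-5p), -0.23 to 0.36 (miR-223-3p) and -0.25 to 0.25 (miR-342-5p), and the miR-511 arm ratio from -0.36 to 0.49. The causes were not tested.

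No paired analysis was possible because no animal number is shared by the genotypes. With the number range as a block 0 entries were called. With 4 libraries a genotype, the 95% intervals of the 8 member differences reached as far as -1.57 and 1.19. They come from the fit on genotype alone, where differences between the ranges count as spread between libraries. The common dispersion was 0.58 in that fit and 0.28 in the fit with genotype and range. Intervals with the range as a block are not given here.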
